A study of Mus musculus with 2 samples.

Results

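The genes described here are 8 members of the cholesterol synthesis program, Hmgcs1, Idi1, Fdps, Fdft1, Sqle, Lss, Cyp51 and Insig1, found by symbol among the 32285 genes counted. They were given as a list, and 7 of them encode enzymes of the pathway. Insig1 is not an enzyme. It encodes a membrane protein that restrains the pathway, so the name cholesterol synthesis enzymes covers 7 of the 8. Single-cell RNA was sequenced from Lineage-, cKit+ bone marrow cells of C57BL/6 mice, which include the hematopoietic stem cells (HSCs), taken from femora and tibiae, frozen and thawed. Control mice were Trsp f/f, and those labelled knockout were Trsp f/f:Mx1-Cre. Trsp encodes the transfer RNA that inserts selenocysteine into selenoproteins, and Mx1-Cre is a recombinase driven by an interferon-inducible promoter that is active in many cell types, not in blood cells alone. Mice of both genotypes carried the floxed Trsp allele and received pI-pC, an interferon-inducing RNA, as 3 injections of 500 µg. The record places the injections at 7 weeks after birth, in wording that leaves the age inexact, and the marrow 9 weeks after the last one. How many mice were pooled is not stated in the labels. With 1 library per genotype there was no test of any difference. Levels are CPM, the unique molecular identifiers (UMIs, captured RNA molecules) of a gene summed over cells, per 1000000 UMIs of those cells. Ratios are log2 of knockout over control, and every interval is a 95% interval that covers counting error only, not the spread between mice.

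Cells make cholesterol from acetyl-CoA through the mevalonate pathway. Hmgcs1 makes HMG-CoA, from which mevalonate is made. Idi1 and Fdps build farnesyl diphosphate, which leaves for sterols through Fdft1 or for prenyl groups, dolichol and coenzyme Q through other enzymes. Most genes of the pathway are switched on together by the transcription factor SREBP2 when membrane sterol is low, and Insig1, itself a target, holds the SREBP escort protein SCAP in the endoplasmic reticulum when sterol is plentiful. The pathway also meets the selenocysteine transfer RNA, since Trit1 transfers an isopentenyl group made by the pathway onto it. Dividing cells need sterol for new membrane.

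The promoters of Hmgcs1 and Insig1 are shown because they hold matches for the DNA motifs through which SREBP2 and its partners are known to act, and because these genes stand at the entry of the pathway and at its brake. Sequences are from RefSeq on GRCm38.p6, on the strand of the gene, and end before the RefSeq start. The Insig1 stretch printed has 201 bases and that of Hmgcs1 250. Of the 8 members, 5 had an entry in the promoter table (Hmgcs1, Idi1, Lss, Cyp51 and Insig1). Capitals mark matches on either strand to TCACNCCAC (a sterol regulatory element type), CCAAT (NF-Y box, read as ATTGG on the other strand), GGGCGG (Sp1 box, read as CCGCCC on the other strand) and CACGTG (E box). None of these motifs contains another.
Hmgcs1, chr13:119690101-119690350, plus strand: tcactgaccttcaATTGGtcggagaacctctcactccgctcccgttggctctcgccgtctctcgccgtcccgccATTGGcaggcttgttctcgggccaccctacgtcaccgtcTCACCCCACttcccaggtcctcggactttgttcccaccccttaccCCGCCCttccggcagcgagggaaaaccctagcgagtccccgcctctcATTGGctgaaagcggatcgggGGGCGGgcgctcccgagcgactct
Insig1, chr5:28071162-28071362, plus strand: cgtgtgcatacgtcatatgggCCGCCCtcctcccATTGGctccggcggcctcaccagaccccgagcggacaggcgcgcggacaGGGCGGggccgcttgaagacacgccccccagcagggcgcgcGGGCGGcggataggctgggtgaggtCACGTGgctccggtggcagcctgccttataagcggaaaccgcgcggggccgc
In the 250 bases before the RefSeq start, TCACNCCAC was present in 1.05% of 32851 promoters and in 1 of the 5 members with an entry, Hmgcs1. CCAAT was present in 33.9% of promoters and in 5 of 5 members, GGGCGG in 32.7% and 5 of 5, and CACGTG in 6.02% and 1 of 5, Insig1. Hmgcs1 carries the TCACNCCAC match between NF-Y and Sp1 matches, and Insig1 carries an E box downstream of its NF-Y and Sp1 matches. A match describes letters only, and no binding was measured here.

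After filtering, 8007 control and 6632 knockout cells remained, with a median of 20315 and 20712.5 UMIs per cell. Clustering without the members, the other listed lipid genes and the selenoprotein genes gave 23 clusters, from which 13 classes were named by markers. Genes of S, G2 and M phase were not left out of the clustering, so the classes are not independent of them. Of these, 8 had at least 100 cells in each library and were compared. A cluster of few UMIs held 1.95% of control and 19.4% of knockout cells, stayed unnamed, and is part of the values over all kept cells. In 10 cases a barcode was kept in both libraries. As a check of the genotype labels, 7 of 10 listed selenoprotein mRNAs were lower by 1.5-fold or more in the kept knockout cells, among them Gpx1 at 1507 and 252 CPM. Trsp itself was not analysed here.

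Across the progenitor classes, 7 of the 8 members (all but Fdps) had lower levels in both neutrophil classes than in HSC-like cells, in both libraries. Fdps had higher levels there. Levels are set side by side between classes and not between genes, because 3′ capture differs from gene to gene.

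Hmgcs1, HMG-CoA synthase of the cytosol (ENSMUSG00000093930, mm10 chromosome 13, 119690379 to 119708260), was at 32.6 CPM in control and 33.5 CPM in knockout HSC-like cells. In maturing neutrophil-like cells it was at 9.42 and 10.4 CPM, and in dendritic cell-like cells at 83.2 and 50.2 CPM. Dendritic cell-like cells had the highest control level, apart from the next class, and the intervals of the 5 classes from the megakaryocyte progenitor-like class, at 33.1 CPM, down to the monocyte progenitor-like class, at 22.6 CPM, each overlapped with their neighbour. Idi1, the isomerase of isopentenyl diphosphate (ENSMUSG00000058258, chromosome 13, 8885501 to 8892451), was at 32.3 and 28.9 CPM in HSC-like cells and at 14.95 and 14.1 CPM in maturing neutrophil-like cells. In dendritic cell-like cells it was at 55.3 CPM in the control library, the highest of the 8 classes, and at 21.1 CPM in the knockout library, where its interval overlapped those of both neighbours in the order.

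Fdps, farnesyl diphosphate synthase (ENSMUSG00000059743, chromosome 3, 89093588 to 89101959, minus strand), was at 51.4 and 37.7 CPM in HSC-like cells, at 117 and 96.6 CPM in neutrophil progenitor-like cells and at 127 and 98.9 CPM in maturing neutrophil-like cells. In dendritic cell-like cells it was at 196 and 110 CPM. The order of the other members, high in HSC-like and low in neutrophil cells, was thus turned for Fdps in both libraries. Over the 16 points of 8 classes in 2 libraries, the Pearson correlation of its log2 CPM with the mean of the other members was −0.27, and it was −0.83 over the 14 points without dendritic cell-like cells. For the other 7 members this correlation ranged from 0.55 (Lss) to 0.94 (Cyp51). These points share libraries and depth, so the correlations are descriptions.

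Fdft1, squalene synthase (ENSMUSG00000021273, chromosome 14, 63145150 to 63179578, minus strand), was at 12.4 and 13.6 CPM in HSC-like cells and at 5.63 and 5.59 CPM in neutrophil progenitor-like cells. Its annotation overlaps that of Ctsb, a cathepsin gene on the other strand, by 774 bases. Whether reads were counted by strand is not stated in the labels, so reads of the overlap cannot be told apart. Sqle, squalene epoxidase (ENSMUSG00000022351, chromosome 15, 59315077 to 59331192), was at 27.6 and 29.3 CPM in HSC-like cells, at 34.3 and 38.1 CPM in megakaryocyte progenitor-like cells and at 7.77 and 5.78 CPM in maturing neutrophil-like cells. Lss, which closes the sterol rings (ENSMUSG00000033105, chromosome 10, 76531588 to 76557138), was the least counted member. It was highest in megakaryocyte progenitor-like cells, at 13.6 and 15.8 CPM, and lowest in monocyte progenitor-like cells, at 1.98 and 2.05 CPM.

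Cyp51, the lanosterol demethylase (ENSMUSG00000001467, chromosome 5, 4081145 to 4104746, minus strand), was at 28.0 and 31.0 CPM in HSC-like cells, at 60.6 and 49.7 CPM in dendritic cell-like cells and at 10.6 and 7.71 CPM in maturing neutrophil-like cells. It overlaps Akap9 on the other strand by 166 bases, and annotated genes outside the count table overlap Fdps on its own strand. Insig1 (ENSMUSG00000045294, chromosome 5, 28071363 to 28078662) was at 24.8 and 25.4 CPM in HSC-like cells, at 24.7 and 27.8 CPM in the multipotent or lymphoid-primed class and at 13.6 and 10.4 CPM in neutrophil progenitor-like cells. For Cyp51 and Insig1, dendritic cell-like cells were highest in both libraries. The intervals stood apart from the next class in both libraries for Cyp51, and in the control library only for Insig1.

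**Figure D1:**
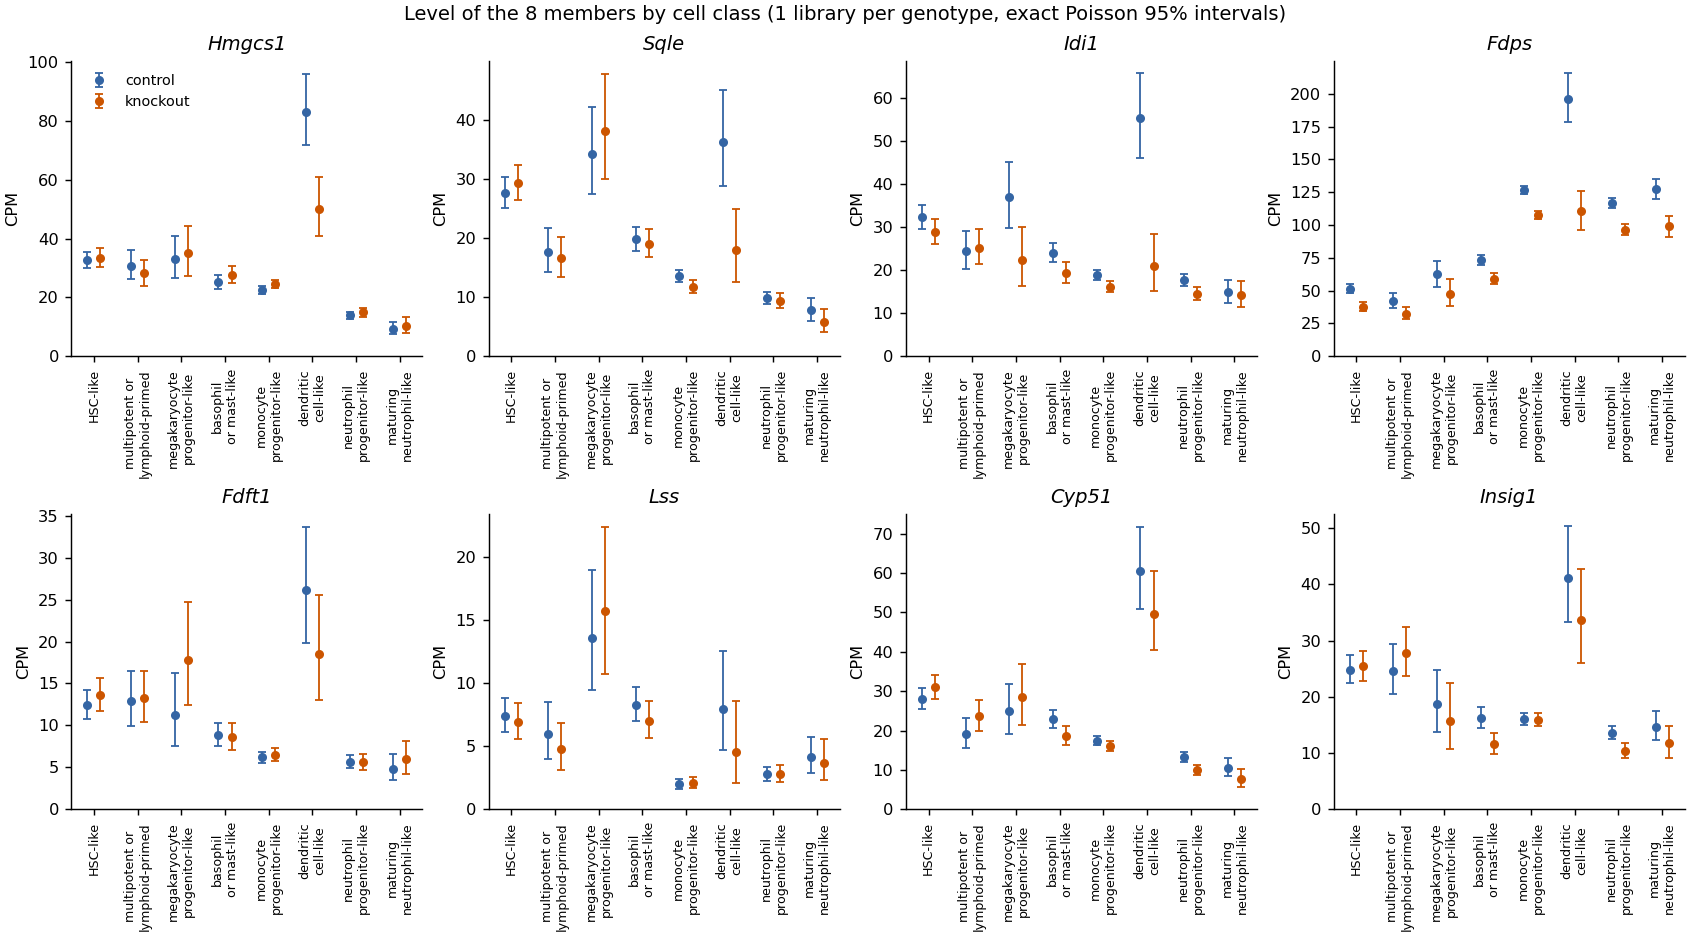
Level of each member in the 8 compared classes, in CPM from 0, with control in blue and knockout in orange and bars for exact Poisson 95% intervals. Dendritic cell-like cells hold the highest control level of 7 members, Lss being highest in megakaryocyte progenitor-like cells, and the Fdps panel runs opposite to the others from HSC-like to neutrophil classes.

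Over all kept cells, no member was 1.5-fold apart between the libraries. Of 6094 measured genes (at least 20 CPM in 1 library and 50 UMIs over both) 1.64% were at least 1.5-fold apart, and 3 of the 8 members, Hmgcs1, Idi1 and Fdps, were above that floor. Fdps was lower in the knockout library, at 98.5 CPM in control (97.0 to 100.03) and 77.9 CPM in knockout (76.4 to 79.4), a log2 ratio of −0.34 (−0.37 to −0.30). Idi1 was at 21.4 and 18.6 CPM, −0.20 (−0.27 to −0.13). Hmgcs1 was at 22.2 and 23.2 CPM, with an interval that spanned 0 (−0.004 to 0.13). The median ratio over the 8 members was −0.09, against 0.08 over all measured genes. The summed level of all 8 was 205 and 180 CPM (−0.18, −0.21 to −0.16), and without Fdps it was 106 and 102 CPM (−0.05, −0.09 to −0.02).

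Fdps was the member whose interval lay below 0 in all 8 compared classes. Its ratio ran from −0.24 in monocyte progenitor-like cells, at 127 and 107 CPM, to −0.83 in dendritic cell-like cells. In HSC-like cells it was −0.45 (−0.61 to −0.28). Of 18 clusters with at least 100 cells in each library, 17 had a lower Fdps level in the knockout library, 15 of them with an interval below 0. The exception was the cluster of few UMIs (0.08, −0.41 to 0.61), at 75.4 and 79.9 CPM. Over the alternatives, its ratio over all kept cells ran from −0.46 to −0.32. Idi1 had an interval below 0 in 5 of 8 classes, Sqle, Cyp51 and Insig1 each in 2, and Fdft1 and Lss in none. The share of all genes with an interval below 0 is not given here, so these counts, with those for Fdps, have no background beside them. Hmgcs1 was lower in dendritic cell-like cells and higher in monocyte progenitor-like cells, there at 22.6 and 24.6 CPM (0.12, 0.003 to 0.24). The median over all measured genes of the monocyte progenitor-like class, 0.08, lay inside that interval.

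In HSC-like cells the 8 members had a median ratio of 0.03, against 0.02 over all measured genes, and 0 of them were at least 1.5-fold apart, against 1.13% of measured genes. The summed level without Fdps was 165 CPM in the control library and 169 CPM in the knockout library (0.03, −0.05 to 0.11). For the multipotent or lymphoid-primed class the median was −0.03, with 0 members at least 1.5-fold apart (1.91% of measured genes). Medians were −0.27 in basophil or mast-like cells (0 members, 1.39% of genes), −0.06 in monocyte progenitor-like cells (0 members, 1.83%), −0.17 in neutrophil progenitor-like cells (0 members, 2.35%) and −0.24 in maturing neutrophil-like cells (0 members, 4.05%). The medians over all measured genes were between 0.05 and 0.12 in these 4 classes. Insig1 in basophil or mast-like cells, at 16.2 and 11.6 CPM, had a ratio of −0.48 (−0.77 to −0.19), which ran from −1.19 to −0.30 over the alternatives.

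In megakaryocyte progenitor-like cells the median was 0.12, and 2 members were at least 1.5-fold apart, against 6.11% of measured genes. That share is over genes above the floor, as were 5 of the 8 members. Of the 2, Idi1 was above the floor and Fdft1 was not. Idi1 was lower, at 37.0 CPM in control and 22.4 CPM in knockout (−0.73, −1.28 to −0.20). Fdft1 was at 11.3 and 17.8 CPM, with an interval that spanned 0 (0.66, −0.10 to 1.42) and a value of −0.26 with cells placed one by one by their markers. This class had 197 control and 129 knockout cells, and 33 and 8 at other clustering resolutions.

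**Figure D2:**
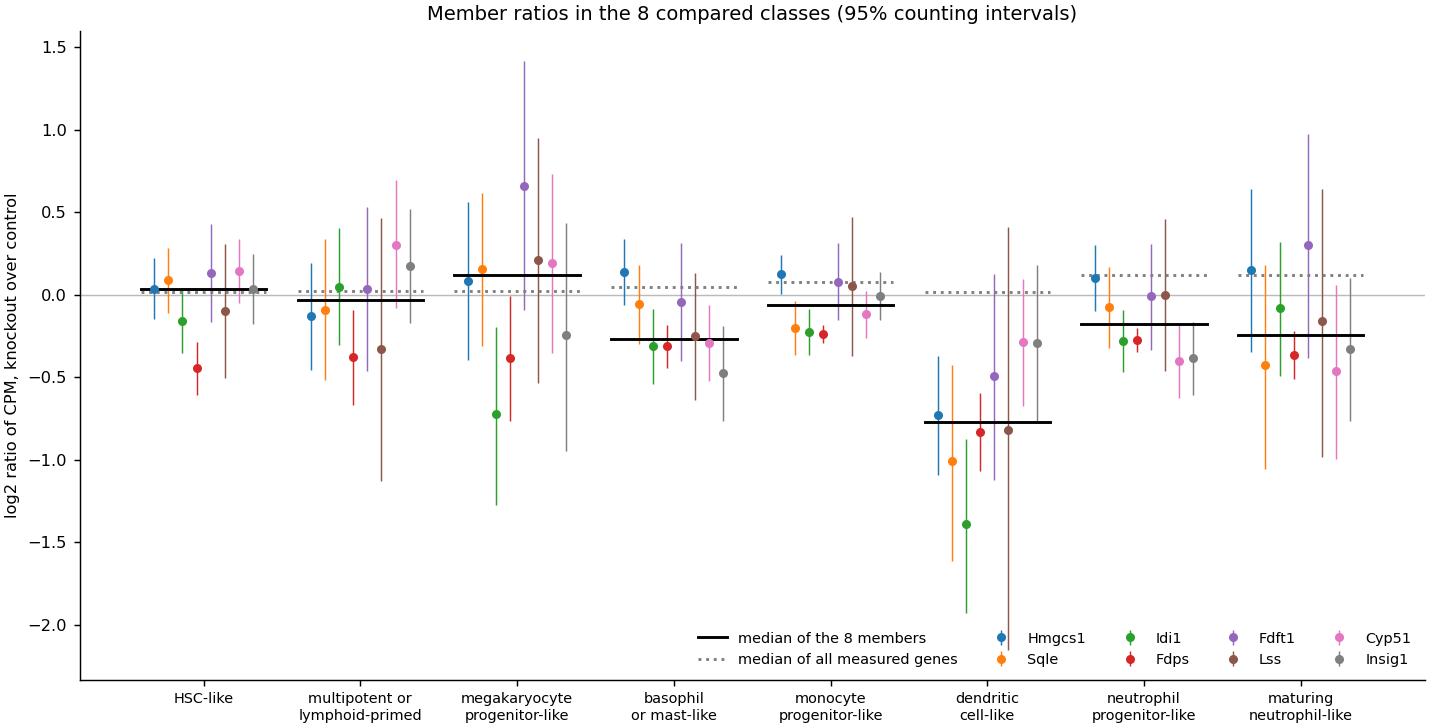
Log2 ratio of CPM (knockout over control) of each member in the 8 compared classes, with 95% counting intervals, the median of the 8 members as a black line and the median of all measured genes as a dotted grey line. The red Fdps points lie below 0 in each class, and the black line is lowest in dendritic cell-like cells, at −0.77.

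Dendritic cell-like cells stood lowest. This class held 183 control and 137 knockout cells, and its naming rests on the class II histocompatibility genes H2-Aa, H2-Ab1 and H2-Eb1, their invariant chain Cd74 and the regulator Ciita. All 8 members had a ratio below 0 there, against 47.3% of measured genes, and the median was −0.77, against 0.02 over measured genes. Of the 8, 5 were lower by 1.5-fold or more in knockout, where 2.62% of measured genes were at least 1.5-fold lower and 8.33% were 1.5-fold apart in either direction. These shares are over genes above the floor, which Lss was not, and above the floor the count was 4 of 7. Of all genes with at least 10 UMIs in the class, the filter that Lss passed, 6.66% were at least 1.5-fold lower. Hmgcs1 gave 188 control and 100 knockout UMIs, a ratio of −0.73 (−1.09 to −0.37). Idi1 gave 125 and 42 UMIs, −1.39 (−1.93 to −0.88). Fdps gave 444 and 220 UMIs, −0.83 (−1.07 to −0.59). Sqle gave 82 and 36 UMIs (36.3 and 18.1 CPM), −1.01 (−1.61 to −0.42). Those 4 had intervals below 0, a call for which no share over all genes is given. Lss, with 18 and 9 UMIs (−0.82), Fdft1, at 26.1 and 18.6 CPM (−0.49), Cyp51 (−0.29) and Insig1, at 41.1 and 33.6 CPM (−0.29), had intervals that spanned 0. Summed over the 8, the level was 507 CPM (478 to 537) in the control library and 306 CPM (282 to 331) in the knockout library, −0.73 (−0.87 to −0.58).

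Few cells held much of the level in both libraries, the top 10 cells having 31.0% of the member UMIs of the control class and 32.8% of those of the knockout class. Each cell was thinned to 5000 UMIs, which left 176 control and 135 knockout dendritic cell-like cells. The mean was 2.67 member UMIs per control cell (SD 3.59 over cells) and 1.40 per knockout cell (SD 1.92), while the median was 1 in both. At least 3 member UMIs were found in 34.1% of control and 17.8% of knockout cells after thinning, and in 59.6% and 59.9% without it, where knockout cells were deeper. Control cells with at least 5 member UMIs numbered 27, or 15.3% (10.4 to 21.5), and the knockout library had 6, or 4.44% (1.65 to 9.42). These cells held 53.3% of the member UMIs of the control class and 20.1% of those of the knockout class. Thinning is random, and over 20 other draws the number ran from 21 to 32 control cells and from 6 to 10 knockout cells, so the 6 printed is the lowest. Another 11 control and 4 knockout cells were 1 UMI below this threshold. Without thinning, a member share of at least 10 per 10000 UMIs was found in 19 control cells, 10.8% (6.63 to 16.3), and 7 knockout cells, 5.19% (2.11 to 10.4), intervals that overlapped. With the cells of at least 5 member UMIs left out, the summed level was 283 and 254 CPM (−0.16, −0.34 to 0.03), and the median over the members −0.12. Only 5 of 8 members then had a ratio below 0, with Hmgcs1 at 0.054, Insig1 at 0.33 and Cyp51 at 0.35. Over the 20 other draws this median ran from −0.49 to 0.06, the summed ratio from −0.44 to −0.105, and the number of members below 0 from 3 to 7. These cells were chosen by the members' own UMIs, so the smaller ratio without them is partly set by that choice. The counting intervals of the class treat UMIs as independent and do not cover this spread between cells. In HSC-like cells the shares of cells with at least 5 member UMIs were 2.54% and 3.18%.

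**Figure D3:**
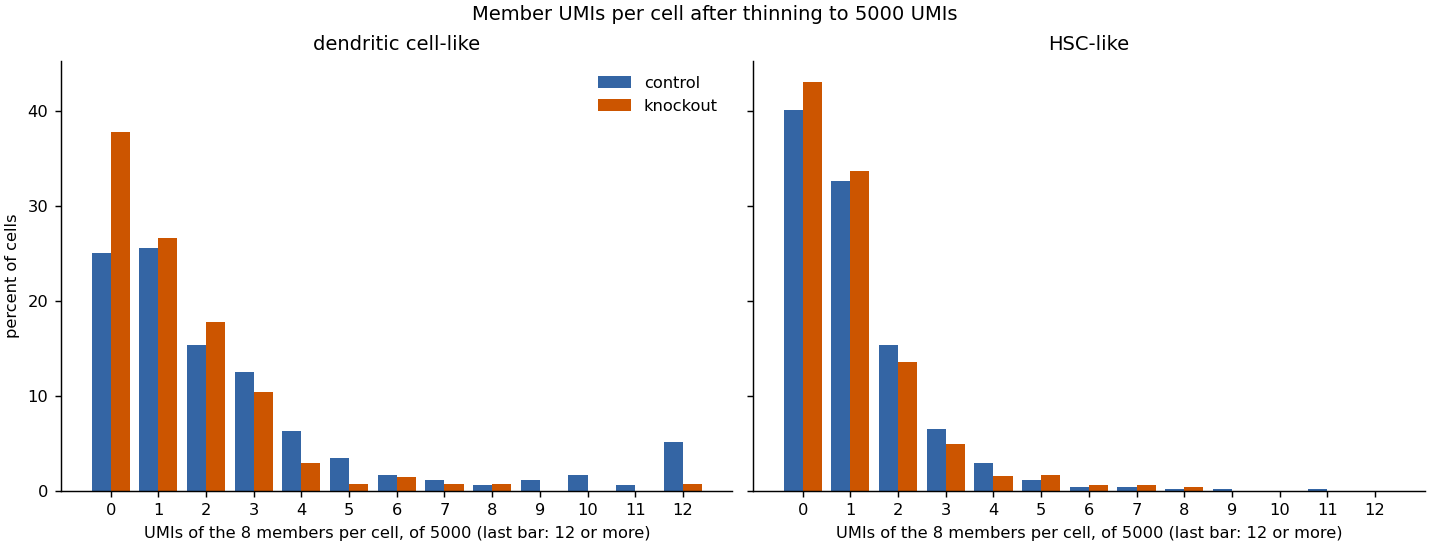
Percent of cells by the number of UMIs of the 8 members per cell after thinning to 5000 UMIs, in dendritic cell-like and HSC-like cells, control in blue and knockout in orange. In dendritic cell-like cells 5.11% of control and 0.741% of knockout cells are in the last bar, of 12 or more UMIs, and 75.0% and 62.2% have at least 1.

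Other enzymes of the pathway, whose UMIs did not choose these cells, were also high in them. The 14 other enzymes of the pathway summed to 1194 CPM in the 27 control cells and 477 CPM in the other control dendritic cell-like cells, and to 1097 and 482 CPM in the corresponding knockout cells. Msmo1, the sterol methyl oxidase, was at 107 and 16.6 CPM in control and 118 and 13.6 CPM in knockout. The 6 knockout cells gave 10 UMIs of Msmo1, so its level there is imprecise. Msmo1 was named after its values were seen. The 18 genes of S, G2 and M phase summed to 8327 CPM in the 27 control cells and 4723 CPM in the other control cells. In knockout they summed to 5117 and 5379 CPM. In the draw used, they were thus higher in the high-member cells of the control library only. The knockout sum rests on 434 UMIs from 6 cells, so this contrast between the libraries is imprecise, and it was not tested.

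The class was also divided at its median of S, G2 and M phase UMIs per thinned cell. This division was chosen after those sums were seen and is not independent of them, so its values describe where the member UMIs lay. Above the median, of 19 UMIs, the members summed to 702 CPM (656 to 750) in the 78 cells of the control library and 330 CPM (299 to 362) in the 74 of the knockout library, −1.09 (−1.26 to −0.92). At or below it they summed to 276 CPM (244 to 310) in 98 and 259 CPM (223 to 300) in 61 cells, −0.09 (−0.36 to 0.18). The intervals of the ratio did not overlap between the strata, though the difference was not tested, and below the median the levels of the libraries overlapped. Above the median all 8 members were lower by 1.5-fold or more in knockout, 7 of them with intervals below 0, where 8.85% of genes with at least 10 UMIs in the stratum were that much lower. At or below it 2 of 8 were, Idi1 (−1.055) and Lss (−0.69), both with intervals that spanned 0, against 12.5% of genes. Both shares are for the fold only, and none is given for intervals below 0. Sqle was at 52.6 and 14.8 CPM above the median (−1.83, −2.65 to −1.07), Idi1 at 77.2 and 24.1 CPM (−1.68, −2.31 to −1.08) and Hmgcs1 at 127 and 55.3 CPM (−1.20, −1.63 to −0.79). The cells at the median numbered 5, and the strata are ranges of a score, not cell types. Cycling genes differed less within the upper stratum, with a sum of 8934 and 7863 CPM and a median ratio of −0.15 over the 18 genes. The stratum was defined in both libraries by the UMIs of these same genes, so their smaller difference is partly set by that choice. Of the 18, 15 had a ratio below 0, 7 with intervals below 0, and the range was −0.63 to 0.20. Their part in the result was not tested.

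**Figure D4:**
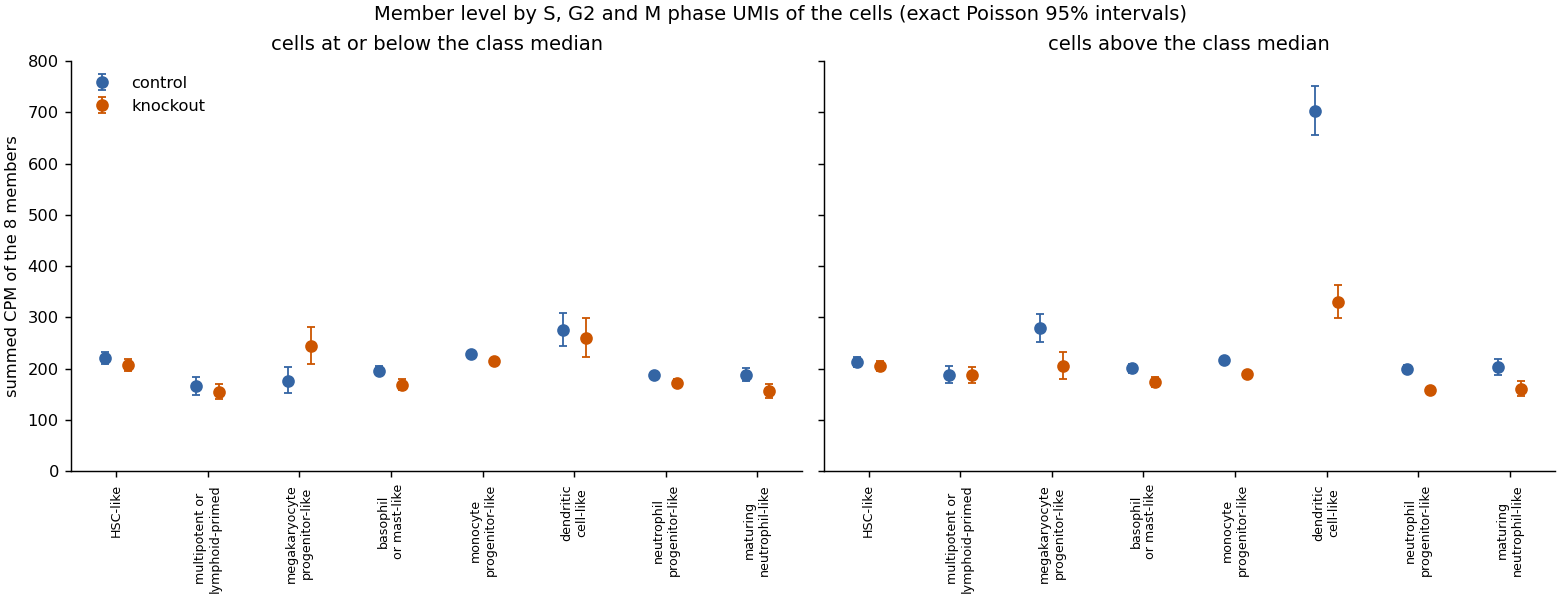
Summed CPM of the 8 members in cells at or below (left) and above (right) the class median of S, G2 and M phase UMIs, for each compared class, control in blue and knockout in orange, with exact Poisson 95% intervals. The dendritic cell-like control cells above the median stand at 702 CPM and the knockout ones at 330 CPM.

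In megakaryocyte progenitor-like cells the members summed to 279 CPM in control and 205 CPM in knockout cells above the median (−0.45, −0.68 to −0.21), and to 176 and 244 CPM at or below it (0.47, 0.17 to 0.77), so the directions were opposite, a difference that was not tested. In the 6 remaining classes the ratio was lowest at −0.34 above the median, in neutrophil progenitor-like cells, and at −0.27 at or below it, in maturing neutrophil-like cells. HSC-like cells were at 213 and 205 CPM above and 221 and 208 CPM at or below.

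Among the 14 other enzymes of sterol synthesis, 13 had at least 10 UMIs in dendritic cell-like cells. Of these 12 had a ratio below 0, 5 were at least 1.5-fold lower, against the 6.66% of genes with at least 10 UMIs, and the median was −0.43. Above the floor the count was 2 of 7. Msmo1 was at 31.0 and 18.6 CPM (−0.74). Mvk, mevalonate kinase, gave 28 and 11 UMIs (−1.17, −2.32 to −0.11), and Mvd, mevalonate diphosphate decarboxylase, gave 33 and 12 (−1.28, −2.37 to −0.29). Hsd17b7 gave 19 and 7 UMIs, with an interval that spanned 0. Lbr, a sterol reductase of the inner nuclear membrane, was at 239 and 229 CPM (−0.06). Msmo1 and Mvd were named after their values were seen. In the cells above the cycle median 7 of 13 enzymes were at least 1.5-fold lower (8.85% of genes), and 3 of the 7 above the floor. In those at or below it 1 of 12 was at least 1.5-fold lower (12.5% of genes) and 3 were at least 1.5-fold higher (13.4% of genes).

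**Figure D5:**
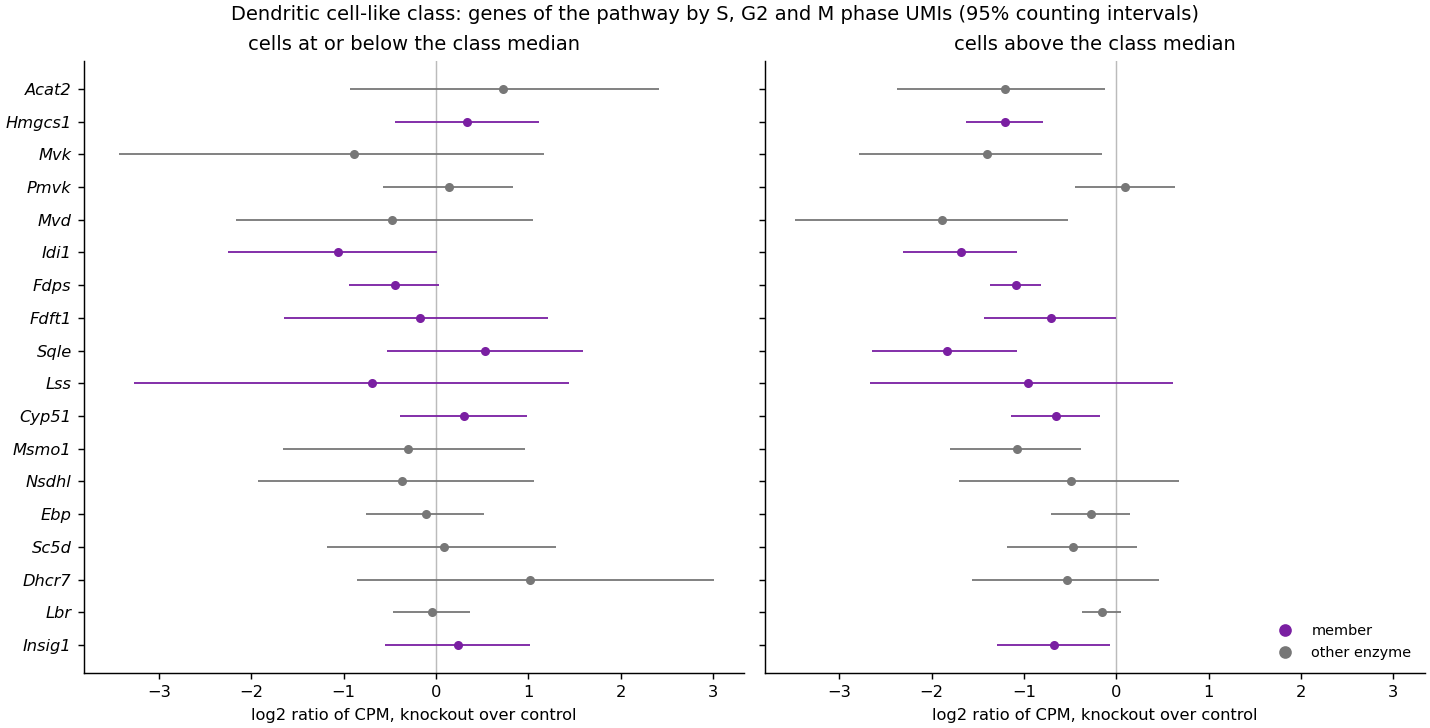
Log2 ratio (knockout over control) with 95% counting intervals of 8 members (purple) and 10 other enzymes (grey) in dendritic cell-like cells at or below (left) and above (right) the class median of S, G2 and M phase UMIs. Members lie between −1.83 and −0.65 on the right and on both sides of 0 on the left.

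Over all kept cells, by contrast, 0 of these 14 enzymes were 1.5-fold apart. The median was −0.04, with Mvk lower at 10.03 and 7.70 CPM (−0.38, −0.49 to −0.27), Ebp, the sterol isomerase, lower at 62.2 and 55.3 CPM (−0.17), and Lbr higher at 150 and 171 CPM (0.19).

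Of the genes of sterol sensing and SREBP control, 7 had at least 10 UMIs in dendritic cell-like cells, with a median of 0.18. Srebf2, which encodes SREBP2, was at 153 and 155 CPM in dendritic cell-like cells (0.02, −0.21 to 0.24) and at 45.3 and 48.2 CPM over all kept cells. Scap was at 27.9 and 21.6 CPM in dendritic cell-like cells, with an interval that spanned 0. Insig2, the paralog of Insig1, gave 14 and 38 UMIs there (1.62, 0.71 to 2.62), and was, like Scap, named after its value was seen. Of the 8 genes of the list, 0 were 1.5-fold apart over all kept cells, with a median of 0.17.

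In uptake and transport, the directions were mixed. Tmem97, a partner of the sterol transporter Npc1, was lower in dendritic cell-like cells, at 23.9 and 11.5 CPM (−1.05). Lipa, the lysosomal lipase that frees cholesterol from its esters, was higher, at 29.6 and 64.7 CPM (1.13, 0.69 to 1.58), and over all kept cells it was at 22.6 and 35.0 CPM (0.63, 0.57 to 0.69). Mylip, a ubiquitin ligase, gave 23 and 48 UMIs in dendritic cell-like cells (1.24, 0.50 to 2.03). In the list as a whole, 2 of 8 genes with at least 10 UMIs were at least 1.5-fold higher, 1 was at least 1.5-fold lower, and the median was 0.05.

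Efflux and storage genes were few in these cells. Of the 6 listed, 3 had at least 10 UMIs in dendritic cell-like cells and 0 of the 3 were 1.5-fold apart. Over all kept cells the cholesterol exporter Abca1 was at 2.54 and 3.36 CPM (0.40, 0.21 to 0.60), and Soat1, which esterifies cholesterol, at 38.6 and 44.2 CPM (0.19). Of the 10 genes of the non-sterol branches, 0 were 1.5-fold apart over all kept cells or in dendritic cell-like cells. Trit1, which modifies the selenocysteine transfer RNA, was at 10.3 and 10.8 CPM over all kept cells (0.07, −0.03 to 0.17), and was named for its role, outside the naming rule. Of 10 fatty acid synthesis genes, Acss2, which makes acetyl-CoA from acetate, was at least 1.5-fold higher over all kept cells, at 7.40 and 12.1 CPM (0.71, 0.60 to 0.81), and Fads1, a desaturase, was at 12.9 and 19.3 CPM (0.57). Fasn, fatty acid synthase, was at 53.3 and 57.6 CPM (0.11).

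Of the 10 markers of the dendritic cell-like class, 9 had a ratio above 0. Siglech, on 27 and 16 UMIs, was at 11.9 and 8.03 CPM (−0.57, −1.56 to 0.37). H2-Aa was at 3071 and 3491 CPM (0.19), Cd74 at 6425 and 7376 CPM (0.20) and Xcr1, a marker of a conventional dendritic cell subset, was at 56.6 and 66.7 CPM (0.24, −0.12 to 0.60). Cd209a (0.54) and Itgax (0.65) were higher. Of genes looked at after the values were seen, Clec9a was higher (0.29, 0.001 to 0.58). Irf8 (0.015), Irf4 (0.18), Ccr7 (0.50), Klrd1 (0.06) and the monocyte lineage gene Csf1r (0.11) had intervals that spanned 0. So did Zbtb46 (−0.23), Bst2 (−0.15) and Ly6d (−0.52). Fscn1 gave 4 control and 0 knockout UMIs, and Ccl22 gave 0 in both. Ly6c2, another monocyte lineage gene looked at after, was lower, at 129 and 48.2 CPM (−1.42, −1.77 to −1.08). Mpo, also looked at after, was at 210 and 161 CPM (−0.39, −0.59 to −0.18). The 10 markers of T, NK or innate lymphoid cells summed to 8.41 and 9.54 CPM, with 8 and 7 of them at 0 UMIs. The 9 mature B or plasma cell markers summed to 121 and 84.3 CPM, with 4 and 3 at 0, the 8 macrophage markers to 1.77 and 7.03 CPM, with 5 and 5 at 0, and the 8 stromal or endothelial markers to 36.7 and 56.2 CPM, with 5 and 7 at 0. Median depth was 11808 UMIs in control and 14489 in knockout cells of the class. Their part in the members' difference was not tested. A smaller share of a dendritic cell subset and less RNA per cell cannot be told apart here.

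Genes outside the lists whose class profile was most like the mean of the members were Mrpl52, a mitochondrial ribosome protein (Pearson r 0.967), Ap2b1 (0.949), Slc25a20 (0.947), Stk40 (0.944) and Cbfa2t3 (0.944), over the same 16 points and among 7432 genes. Each of these 5 was highest in control dendritic cell-like cells. Cbfa2t3, a transcriptional corepressor, ranged from 50.9 to 594 CPM and had a ratio of −0.05 (−0.17 to 0.06) in that class. Least like the members were Hvcn1 (−0.955), Rpl41 (−0.953) and Afap1 (−0.95), each highest in knockout maturing neutrophil-like cells. Both groups of genes were chosen by their correlation with the member profile, so the class where they were highest is partly set by that choice.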

How the data were processed

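For 2 libraries of 10x Chromium 3′ chemistry, per the labels' protocols, the deposited values were unnormalized UMI counts by gene and barcode. Cell Ranger 6.1.2 and mm10 are named in the submitters' processing notes. The sources used here do not state annotation release, cell calling or strand. The control file held 14372 barcodes and 184683653 UMIs, the knockout file 11556 and 152092210.

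Kept barcodes had 500 genes or more and less than 10% of UMIs from mitochondrial genes. Scrublet (scanpy 1.11.5) set a doublet threshold of 0.39 in the control library, which was used for both and removed 185 and 74 cells. Counts were clustered together without integration on 2000 variable genes, without selenoprotein, sex-linked, mitochondrial, ribosomal protein and listed lipid genes (30 components, 15 neighbours, Leiden at resolution 1, leidenalg 0.10.2). A class name needed at least 2 of its markers among the 25 leading genes and 3 detected. Clusters with a median UMI count under 0.3 of their library's stayed unnamed. These naming thresholds, the shared doublet threshold, thinning to 5000 UMIs, the threshold of 5 member UMIs and the division by cycle genes were chosen after the data were seen. Members and lists were chosen with earlier results of these data known.

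UMIs were summed per library and class. CPM have exact Poisson intervals, shares exact binomial (Clopper-Pearson) intervals and ratios exact conditional binomial intervals, all at 95% and covering counting error only. No significance test was made. The code for ratios was checked on simulated counts. A gene was measured at 20 CPM in 1 library and 50 UMIs over both, and list genes were counted from 10 UMIs. Other listed genes were named if at least 1.5-fold apart over all kept cells or in 2 classes in the same direction, or if among the 3 most counted of their list; others say that they were named after their values were seen. Coordinates are from GENCODE vM21. Free RNA was not removed, and no class is known to lack the members.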

Additional observations from a re-analysis of the deposited data

Results flagged for a closer look

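Hmgcs1 was lower in the knockout library in dendritic cell-like cells (log2 ratio −0.73, interval −1.09 to −0.37) and higher in monocyte progenitor-like cells (0.12, 0.003 to 0.24). The directions were opposite between the 2 classes and both intervals excluded 0, but the difference between the classes was not tested. In monocyte progenitor-like cells the median over all measured genes was 0.08, inside the interval of Hmgcs1 there. Over the alternatives the Hmgcs1 ratio ran from 0.03 to 0.22 in that class and from −1.10 to 0.054 in dendritic cell-like cells.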

How the results depend on the processing

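No paired analysis was possible because each genotype had 1 library. The median member ratio in dendritic cell-like cells stayed between −0.89 and −0.54 under 11 of 12 alternatives and was −0.12, with 2 members at least 1.5-fold apart in place of 5, without the cells of at least 5 member UMIs of 5000, an alternative added after the data were seen. Hmgcs1, Insig1 and Cyp51 there turned to 0.054, 0.33 and 0.35. Over 20 other draws of the thinning, also added after, this median ran from −0.49 to 0.06. The median kept its sign under all alternatives tried over all kept cells (−0.21 with median-of-ratios size factors) and in dendritic cell-like (but for some of those draws), basophil or mast-like, neutrophil progenitor-like and maturing neutrophil-like cells, under 11 of 12 in monocyte progenitor-like cells and 10 of 11 in the multipotent or lymphoid-primed class, but under 5 of 12 in HSC-like cells, where it ran from −0.09 to 0.10, and 4 of 9 in megakaryocyte progenitor-like cells. Fdft1 in megakaryocyte progenitor-like cells turned to −0.26 with the per-cell marker gate. At the lower fold threshold tried, 1 member was called over all kept cells. Without the floor, 2475 genes in place of 100 were 1.5-fold apart over all kept cells and 1878 in place of 506 in dendritic cell-like cells. Maturing neutrophil-like and megakaryocyte progenitor-like cells and the multipotent or lymphoid-primed class were too few for a value under some clusterings, gates or filters. Depth limits Lss and Fdft1 in the smaller classes.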

Other observations

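In classes with fewer than 100 cells in a library, summed member levels were 144 and 166 CPM (log2 ratio 0.21, 0.04 to 0.38) in 80 control and 113 knockout early erythroid-like cells, and 241 and 176 CPM (−0.45, −0.69 to −0.22) in 143 control and 78 knockout eosinophil-like cells. They were lowest in mature B or plasma-like cells, at 79.7 and 89.5 CPM in 65 and 36 cells.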
